A study of Mus musculus with 6 samples.

Results

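The cyclic nucleotide genes of mouse fat that make cAMP, bind natriuretic peptides, break down cAMP and cGMP, or form protein kinase A (PKA) were taken by name: every protein-coding row called Pde with a number and a letter, Adcy with a number, Prkaca, Prkacb, Prkar1a, Prkar1b, Prkar2a, Prkar2b, Npr1, Npr2 or Npr3. This gave 43 of the 55039 genes in the count table, namely 10 adenylyl cyclases, 24 phosphodiesterase (PDE) genes, 6 PKA subunits and 3 natriuretic peptide receptors. The rule uses names alone. Epididymal white adipose tissue (eWAT) was taken from male C57BL/6 mice, 6 to 7 weeks old at the start, 28 days after subcutaneous injection of Lewis lung carcinoma (LLC) cells (CAC, 3 mice) or of phosphate-buffered saline (CONT, 3 mice). LLC is a cultured mouse lung tumor line that is transplanted into its own strain and makes the host lose fat and muscle. Each library was made from polyadenylated RNA of 1 mouse, no transgene was involved, and the question was how the expression of these genes differed between CAC and CONT.

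In fat cells, adrenergic hormones act through stimulatory G proteins on membrane-bound adenylyl cyclases, which make cAMP. The cAMP binds the regulatory subunits of PKA and frees the catalytic subunits, which phosphorylate hormone-sensitive lipase and perilipin 1 and so start lipolysis, and phosphorylate the transcription factor CREB. Natriuretic peptides reach lipolysis through cGMP: NPR1 and NPR2 are receptors with a guanylyl cyclase domain, whereas NPR3 binds the peptides and removes them. PDE enzymes end both signals, and PDE3B, which insulin activates, is the best known of them in fat cells.

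The libraries held 15713794 to 25926425 counted reads, and 1 CPM (reads scaled by the TMM-adjusted library size, the usual measure for comparing 1 gene between libraries) stood for 11.2 to 26.5 reads. Some libraries stood apart. In CONT replicate 1, mitochondrially encoded genes took 30.2% of the reads, against 3.89% to 5.04% in the other 5 libraries, and this library was the lowest of the 6 in 20 of the 37 members tested (54.1%, against 32.6% of all genes tested). Germ-cell genes (Prm1, Prm2, Tnp1, Ddx4 and Acrv1) summed to 640 CPM in CONT replicate 2 and 947 CPM in CAC replicate 3, against 0.12 to 10.03 CPM in the other 4. Genes of the epididymis reached a sum of 8546 CPM in CONT replicate 3 and at most 0.83 CPM in the CAC libraries. The adipocyte markers were high throughout, with sums of 21102 to 52784 CPM in CONT and 31643 to 42801 CPM in CAC, although Lep, the leptin gene, was at 512 CPM in CAC replicate 1 and at 4.0 and 0.42 CPM in CAC replicates 2 and 3. In whole tissue, fewer cells of a type and less RNA per cell cannot be told apart.

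Of the 10 members with an unadjusted p under 0.05, 6 were phosphodiesterase genes. These 6 lay higher in the tumor-bearing mice, whereas Prkaca, the main PKA catalytic subunit gene, lay lower. Of the 43 members, 37 passed the filter on low counts and were tested. Phosphodiesterase genes with catalytic activity were 17 of these 37, and 11 of the 17 had a positive and 6 a negative log2 fold change. In edgeR's quasi-likelihood test, 10 of the 37 (27.0%) had an unadjusted p under 0.05, against 13.3% of the 17296 genes tested. Among the 10, 7 were higher in CAC (Pde4d, Pde3b, Pde3a, Pde1a, Pde5a, Pde2a and Npr1), against 6.31% of all genes, and 3 were lower (Prkaca, Npr3 and Adcy8), against 6.95%. No member had an adjusted p under 0.05 in edgeR (lowest 0.266), nor did any other gene. DESeq2 gave an adjusted p under 0.05 to 5 members (Pde4d, Pde3b and Pde3a higher, Prkaca and Adcy8 lower), against 5.55% of all genes (3.18% higher, 2.37% lower). Limma's voom with sample quality weights gave one to 4 members (Pde3a and Npr1 higher, Prkaca and Npr3 lower), against 5.51% of all genes (2.78% higher, 2.73% lower). A log2 fold change above 0 was found for 22 of the 37 (59.5%) and for 45.9% of all genes. In 12 of the 37 (32.4%) the values of the CAC mice were all above or all below those of the CONT mice, against 22.5% of all genes, with 10 members above (11.8% of all genes) and 2 below (10.7%). An exact permutation test of 3 against 3 libraries cannot give a p below 0.1. Without CAC replicate 3, 5 of 37 members had an unadjusted p under 0.05, as did 1491 of all 17928 genes tested. Without CONT replicate 2, it was again 5 of 37 members, and 1660 of 17859 genes. Without both of these libraries, the ones with germ-cell genes, it was 2 of 37 (Pde3a and Pde4d), and 857 of 17135 genes.

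**Figure D1:**
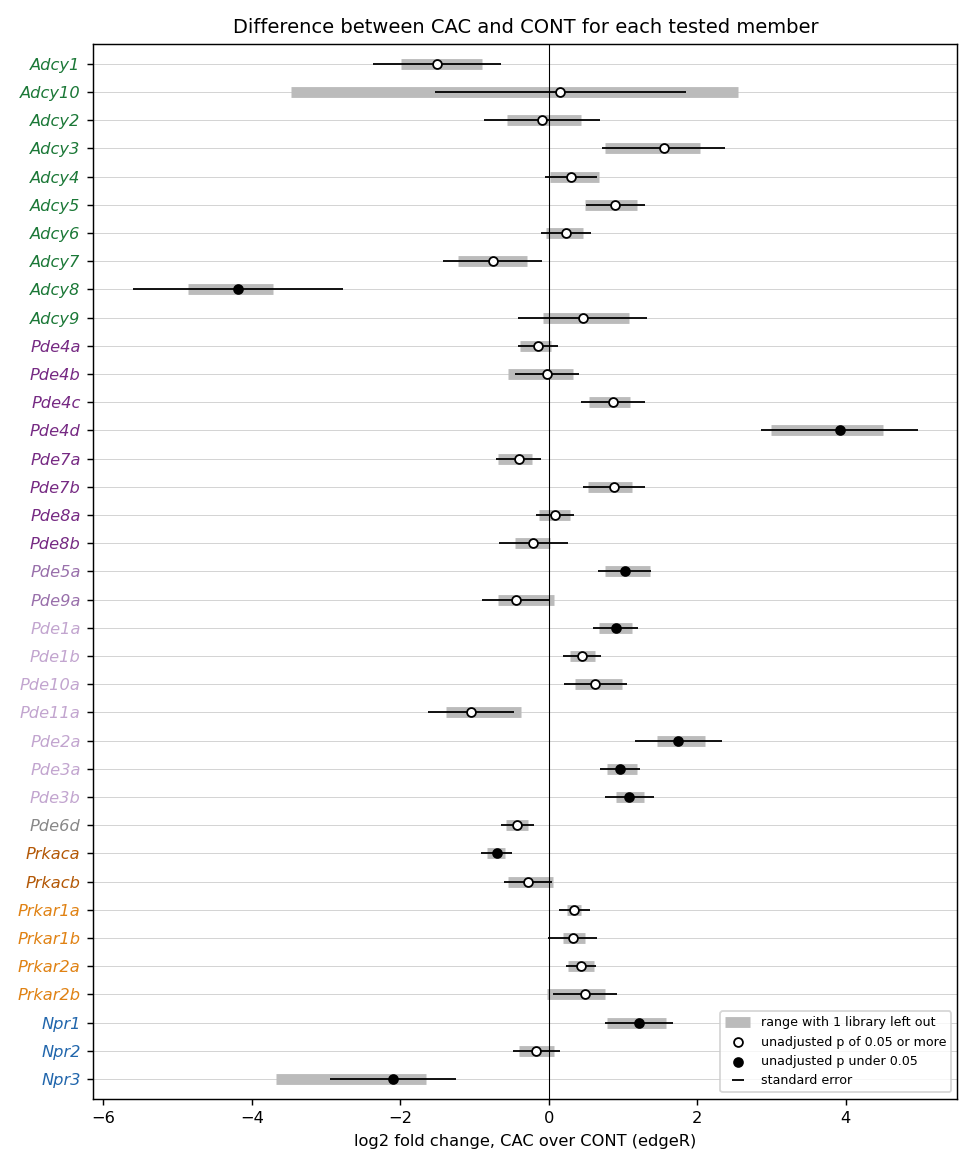
Log2 fold change of CAC over CONT for the 37 members tested by edgeR (horizontal axis), with the standard error as a black line, the range of the estimate when each of the 6 libraries was left out in turn as a grey bar, and a filled point for the 10 members with an unadjusted p under 0.05; the colours of the gene names mark the roles, from adenylyl cyclases at the top to natriuretic peptide receptors at the bottom. Pde4d at 3.92 and Adcy8 at -4.19 lie farthest out, and the bar of Adcy10, from -3.48 to 2.56, is the widest.

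The levels of the genes can be compared with each other only per length, in the deposited FPKM values. The mean over the 6 libraries was over 10 FPKM for 11 members, from 1 to 10 for 18, from 0.1 to 1 for 8 and under 0.1 for 6. Prkar2b (regulatory subunit RIIβ, the form typical of fat) was highest at 113 FPKM, followed by Prkar1a (RIα) at 58.2, Prkaca (catalytic subunit Cα) at 49.0 and Pde3b at 44.6. Npr1 and Npr3 came next at 28.7 and 26.0 FPKM, and then Adcy6, the adenylyl cyclase with the highest mean, at 20.5 FPKM, although Adcy4 was above it in CONT replicate 1 and Adcy5 in CAC replicate 1. The order differed between the groups. Prkaca was above Pde3b in CONT (60.3 ± 2.22 against 28.2 ± 7.42 FPKM, SD, n = 3) and below it in CAC (37.7 ± 7.98 against 61.1 ± 16.0 FPKM). Npr3 was above Npr1 in each CONT mouse (42.0 ± 13.0 against 17.2 ± 5.59 FPKM) and in CAC replicate 1 (23.7 against 19.1 FPKM), and below it in CAC replicates 2 and 3.

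**Figure D2:**
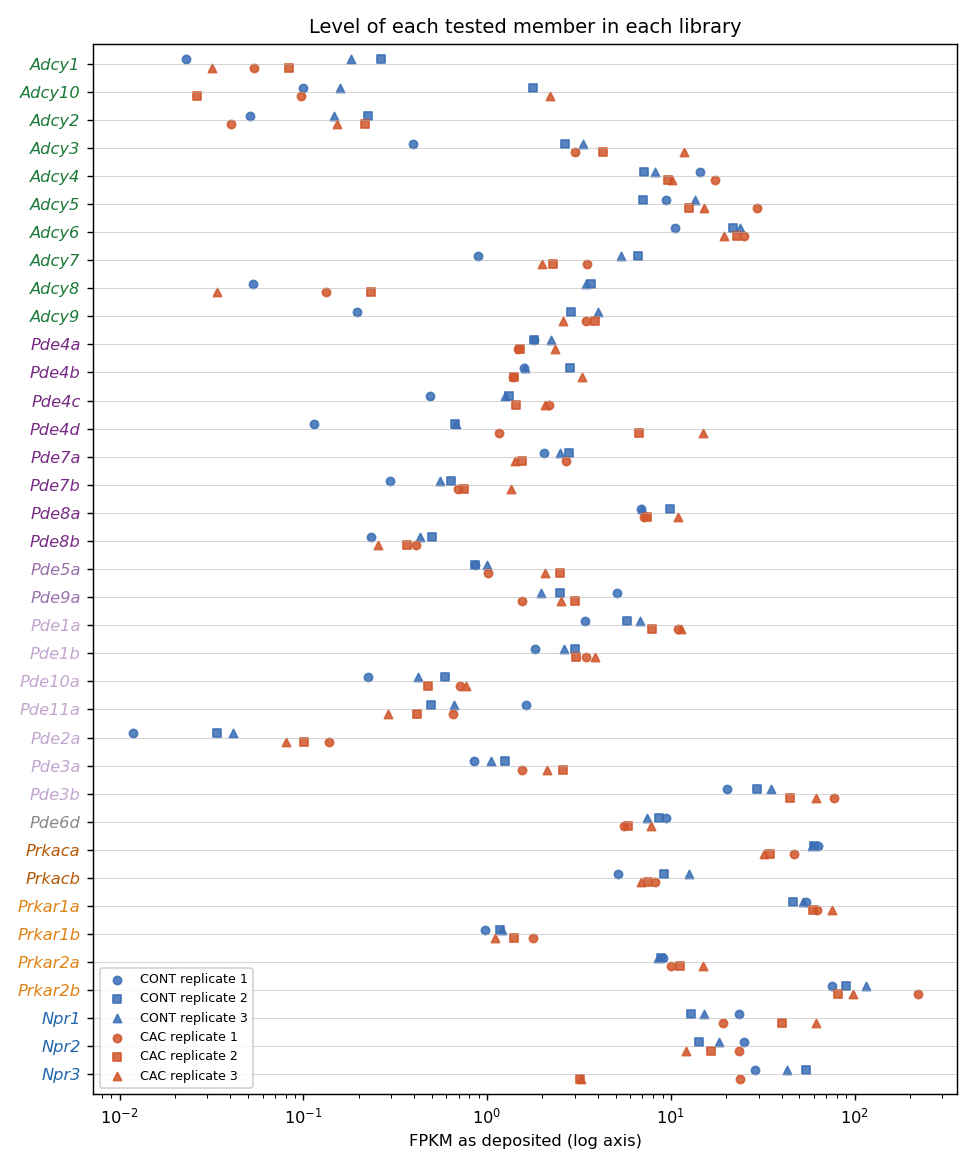
FPKM as deposited (horizontal log axis) of the 37 tested members, with blue symbols for the 3 CONT and orange symbols for the 3 CAC libraries and 1 symbol shape per replicate number; gene names are coloured by role. Prkar2b, Prkar1a, Prkaca and Pde3b sit at the right, and the CONT replicate 1 circle is far to the left of the other CONT symbols for Adcy3, Adcy8, Adcy9 and Pde4d.

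PKA-driven transcription passes through CREB, which binds the letters TGACGTCA (the cAMP response element) or the shorter core TGACG, and the windows shown here are those of the only member with the full site and of the 2 members whose CAC values were all below CONT, both of which hold the core. RefSeq promoter windows of GRCm38.p6, 250 bases before to 50 bases after a gene start, were matched for 34 of the 43 members (71 windows), and both strands were searched, so that a full site also counts as 2 overlapping cores. The full site was found for 1 of the 34 members (2.94%), Prkar1a, against 2.03% of 27025 genes. By window, the core was in 17 of 71 member windows (23.9%) and in 20.8% of all 32851 windows. By gene it was found for 15 of 34 members (44.1%, against 23% of all genes), which have more windows per gene than other genes. These 15 include 4 of the 10 members with an unadjusted p under 0.05: Prkaca and Npr3, lower in CAC, and Pde1a and Pde2a, higher in CAC. Of the same 10, Pde4d, Pde5a and Npr1 were searched and did not hold the core. Pde3b, Pde3a and Adcy8 had no window to search. The following stretches end at the base before the RefSeq gene start for Prkaca and Npr3, and, for Prkar1a, which has several starts, at the base before the next annotated exon, inside the span of the gene, with the site letters of either strand in capitals.
Prkar1a, chr11:109650819-109650920, plus strand: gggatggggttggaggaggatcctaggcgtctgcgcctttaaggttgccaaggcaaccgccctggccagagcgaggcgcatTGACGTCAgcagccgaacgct
Prkaca, chr8:83972848-83972977, plus strand: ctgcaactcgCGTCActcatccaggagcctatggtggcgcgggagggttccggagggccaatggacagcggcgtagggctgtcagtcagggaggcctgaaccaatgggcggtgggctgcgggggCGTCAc
Npr3, chr15:11907372-11907501, minus strand: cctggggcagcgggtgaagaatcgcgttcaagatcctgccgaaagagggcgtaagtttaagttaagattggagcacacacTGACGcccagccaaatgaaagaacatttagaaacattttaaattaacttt
Counted from the RefSeq start, the full site of Prkar1a begins at base -49, the cores of Prkaca, which are on the opposite strand, at bases -120 and -6, and that of Npr3 at base -50. These are matches of letters, and binding of CREB was not measured.

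Among the adenylyl cyclases, all 10 were tested, 6 had a positive and 4 a negative log2 fold change, the median was 0.20 (all genes: -0.06), and in none did the groups separate. Adcy6 had 87.6, 185 and 201 CPM in CONT and 205, 190 and 162 CPM in CAC. These libraries overlapped, and the log2 fold change of 0.23 (SE 0.34) turned to -0.04 without CONT replicate 1, the lowest library. Adcy5 had 83.1, 63.8 and 121 CPM in CONT and 255, 111 and 133 CPM in CAC, with the highest level in CAC replicate 1 and a log2 fold change of 0.90 (SE 0.40, edgeR adjusted p = 0.394) that was 0.49 without that library.

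Adcy8 (ENSMUSG00000022376, chr15:64697084-64922296, minus strand), one of the cyclases that calcium and calmodulin stimulate, had 0.54, 37.3 and 35.0 CPM in CONT and 1.31, 2.34 and 0.34 CPM in CAC. CONT replicates 2 and 3 were far above every CAC library, while CONT replicate 1 lay within the CAC range. The log2 fold change was -4.19 (SE 1.42), an 18.2-fold lower level in CAC, with an adjusted p of 0.310 in edgeR, 0.0126 in DESeq2 and 0.0873 in voom, and DESeq2 kept it under 0.05 in 2 of the 6 fits that left out 1 library. The summed epididymis genes in CONT replicates 1, 2 and 3 were at 160, 0.44 and 8546 CPM, and the summed germ-cell genes were at 640 CPM in CONT replicate 2, the highest in Adcy8, and at 947 CPM in CAC replicate 3, the lowest in Adcy8. Their part in the Adcy8 level was not tested.

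Adcy3 had 3.03, 20.6 and 25.9 CPM in CONT and 22.7, 33.0 and 90.1 CPM in CAC, with a log2 fold change of 1.55 (SE 0.83, edgeR adjusted p = 0.454) that was 0.76 without CAC replicate 3. The opposite-strand gene Cenpo overlaps it with 906 reads against 4836, and a strand setting of the counting is not given in the sources used here. Adcy7, a cyclase known from blood cells, had 7.40, 55.9 and 44.8 CPM in CONT and 28.7, 19.1 and 16.4 CPM in CAC. Its log2 fold change was -0.76 (SE 0.67), -0.29 without CONT replicate 2 and -1.22 without CONT replicate 1, when the groups no longer overlapped. The summed macrophage markers ran from 494 CPM in CONT replicate 1 to 1539 CPM in CONT replicate 3, and from 713 to 1252 CPM in CAC. Their part in the Adcy7 level was not tested.

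Adcy10, the soluble cyclase that sperm depend on, had 1.07, 19.4 and 1.72 CPM in CONT and 1.03, 0.28 and 23.5 CPM in CAC, and was singled out after its values were seen. Pde1c, which did not pass the filter on low counts because nearly all of its 555 reads were in 2 libraries, had 0, 11.8 and 0.36 CPM in CONT and 0.21, 0.32 and 9.97 CPM in CAC. Both were high in CONT replicate 2 and CAC replicate 3 alone, as were the germ-cell markers (Prm1 at 222 and 301 CPM there and at most 3.21 CPM elsewhere) and the sperm anchoring proteins Akap3 (43.8 and 68.2 CPM, at most 0.54 elsewhere) and Akap4 (85.7 and 154 CPM, at most 2.17 elsewhere). The part of germ-cell RNA in these levels was not tested. The remaining cyclases had edgeR adjusted p values from 0.478 to 0.974 and log2 fold changes of 0.30 for Adcy4, 0.46 for Adcy9, -0.09 for Adcy2 and -1.51 for Adcy1.

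The PDE genes with catalytic activity were 21, of which 17 were tested. Of these, 11 (64.7%, against 45.9% of all genes) had a positive log2 fold change, with a median of 0.63. An unadjusted p under 0.05 was found for 6 (35.3%, against 13.3% of all genes), all higher in CAC (6.31% of all genes), and 8 were separated (47.1%, against 22.5%), all with CAC above (11.8%). In CONT replicate 1, 12 of the 17 (70.6%) had their lowest level of the 6 libraries. Their summed level was 47.6, 64.8 and 65.8 FPKM in CONT and 114, 86.0 and 122 FPKM in CAC, so the lowest CAC library lay above the highest CONT library. Among the 8 genes for cAMP alone (PDE4, PDE7 and PDE8) the median log2 fold change was 0.03, and among the 7 tested genes of families that hydrolyse both cAMP and cGMP (PDE1, PDE2, PDE3, PDE10 and PDE11) it was 0.90.

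Pde3b (ENSMUSG00000030671, chr7:114415281-114539251, plus strand) made up 42.6% to 53.1% of the summed PDE FPKM in CONT and 50.7% to 67.4% in CAC. It had 228, 335 and 397 CPM in CONT and 848, 502 and 691 CPM in CAC. The CAC mice all lay above the CONT mice, and the level in CAC was 2.13-fold higher, with a log2 fold change of 1.09 (SE 0.32). The adjusted p was 0.283 in edgeR, 0.0168 in DESeq2 and 0.101 in voom, where the log2 fold change was 0.73. The unadjusted p stayed under 0.05 in 6 of 6 edgeR fits with 1 library left out, with log2 fold changes of 0.91 to 1.29, while DESeq2 kept its adjusted p under 0.05 in 3 of 6.

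Its relative Pde3a (ENSMUSG00000041741, chr6:141249269-141507448, plus strand), the PDE3 form known from heart, platelets and vascular smooth muscle, had 13.4, 19.9 and 16.7 CPM in CONT and 23.9, 40.5 and 32.9 CPM in CAC. The groups did not overlap, and the log2 fold change was 0.96 (SE 0.27), a 1.95-fold higher level in CAC. The adjusted p was 0.273 in edgeR, 0.0333 in DESeq2 and 0.0485 in voom, and with 1 library left out the unadjusted p in edgeR stayed under 0.05 in 6 of 6 fits and the DESeq2 adjusted p in 2 of 6. CAC replicate 2, the highest in Pde3a, was also the library with the most smooth muscle and pericyte marker RNA (1099 CPM). CAC replicates 1 and 3 had less of it (556 and 535 CPM) than the CONT libraries (708 to 775 CPM), with Pde3a above every CONT library, and its part in the Pde3a level was not tested.

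Of the PDE1 family, which calcium and calmodulin activate, Pde1a had 25.2, 43.2 and 50.5 CPM in CONT and 80.1, 58.2 and 83.9 CPM in CAC, with a log2 fold change of 0.90 (SE 0.30, edgeR adjusted p = 0.305). Pde1b had 12.1, 20.3 and 17.6 CPM in CONT and 22.6, 20.3 and 25.5 CPM in CAC, with a log2 fold change of 0.45 (SE 0.25, edgeR adjusted p = 0.471) that was 0.28 without CONT replicate 1. The groups of Pde1a were separate, and those of Pde1b touched, CAC replicate 2 lying just above CONT replicate 2. Pde2a, which cGMP stimulates, was near the limit of counting, with 1, 6 and 7 reads in CONT and 25, 19 and 16 reads in CAC. Its log2 fold change of 1.75 (SE 0.59, edgeR adjusted p = 0.305) rests on these few reads, although the groups did not overlap. Pde10a had 3.57, 9.50 and 6.69 CPM in CONT and 11.05, 7.51 and 12.1 CPM in CAC, and Pde11a had 10.4, 3.24 and 4.29 CPM in CONT and 4.11, 2.66 and 1.85 CPM in CAC. Both overlapped between the groups, with log2 fold changes of 0.63 and -1.05 that were 0.35 and -0.38 without CONT replicate 1.

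Pde4d (ENSMUSG00000021699, chr13:108449948-109953461, plus strand), a cAMP-specific enzyme with many promoters and splice forms, had 1.69, 10.1 and 10.1 CPM in CONT and 17.0, 99.7 and 220 CPM in CAC. Each CAC mouse was above each CONT mouse, and the CAC mice differed widely among themselves, by 12.9-fold from replicate 1 to replicate 3. The log2 fold change was 3.92 (SE 1.06), a 15.2-fold higher level, with an adjusted p of 0.266 in edgeR, 0.000794 in DESeq2 and 0.0699 in voom. With 1 library left out the log2 fold change ran from 2.99 (without CAC replicate 3) to 4.50 (without CAC replicate 1), and DESeq2 kept the adjusted p under 0.05 in 5 of 6 such fits, the exception having 0.0525. A pseudogene on the same strand inside the locus, Rps3a3, had 276 reads against 9177.

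The other PDE4 genes showed no such difference. Log2 fold changes were -0.15 for Pde4a, -0.02 for Pde4b and 0.86 (SE 0.43) for Pde4c, and the groups overlapped for Pde4a and Pde4b. Pde4c had 3.39, 9.20 and 8.68 CPM in CONT and 14.7, 9.93 and 14.1 CPM in CAC, all CAC libraries being above, and its log2 fold change was 0.55 without CONT replicate 1. Within the family, Pde4d took 2.86%, 10.1% and 11.8% of the summed PDE4 FPKM in CONT and 18.9%, 60.7% and 66.0% in CAC, so that it went from the smallest share in each CONT mouse to the largest in CAC replicates 2 and 3. The summed neutrophil markers S100a8, S100a9, Ly6g and Csf3r were at 137, 214 and 980 CPM in CAC and at 4.82 to 52.0 CPM in CONT. Within CAC, S100a8 (48.5, 88.4 and 492 CPM), S100a9 and Ly6g had the order of Pde4d, and Csf3r (24.6, 21.3 and 23.5 CPM) did not. Their part in the Pde4d level was not tested.

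Pde7b had 4.55, 9.94 and 8.54 CPM in CONT and 10.5, 11.5 and 20.6 CPM in CAC, with no overlap and a log2 fold change of 0.88 (SE 0.42, edgeR adjusted p = 0.419) that was 0.52 without CAC replicate 3. The more abundant Pde7a had 19.4, 27.1 and 24.05 CPM in CONT and 25.2, 14.7 and 13.5 CPM in CAC, an overlap with a log2 fold change of -0.40 (SE 0.30). Pde8a, a cAMP enzyme of very high affinity and at 8.21 FPKM over the 6 libraries, had 34.2, 50.1 and 35.2 CPM in CONT and 34.9, 37.1 and 54.3 CPM in CAC. The groups covered the same range, and the log2 fold change was 0.08 (SE 0.26). Pde8b lay at 1.69 to 3.68 CPM in all 6 libraries (log2 fold change -0.21).

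Of the enzymes for cGMP, Pde5a, the target of sildenafil, had 10.3, 10.6 and 12.3 CPM in CONT and 12.1, 30.3 and 25.0 CPM in CAC. CAC replicate 1 lay inside the CONT range and the other CAC libraries above it. The log2 fold change was 1.02 (SE 0.36, edgeR adjusted p = 0.327), and ran from 0.75 (without CAC replicate 2) to 1.37 (without CAC replicate 1) with 1 library left out, the unadjusted p staying under 0.05 in 1 of 6 such fits. Pde9a had 17.7, 8.80 and 6.92 CPM in CONT and 5.30, 10.5 and 8.72 CPM in CAC, with a log2 fold change of -0.44 (SE 0.46) that was 0.07 without CONT replicate 1. The PDE6 genes of photoreceptors were at the floor: Pde6a, Pde6b, Pde6c, Pde6g and Pde6h had at most 11 reads in any library and were not tested. Pde6g had 1, 3 and 1 reads in CONT and 8, 4 and 10 in CAC, separated but on this small number of reads. Pde6d, named with them but a chaperone for prenylated proteins that is found in many tissues, had 25.3, 23.4 and 20.1 CPM in CONT and 14.7, 15.7 and 20.9 CPM in CAC, with a log2 fold change of -0.42 (SE 0.23).

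Prkaca (ENSMUSG00000005469, chr8:83972993-83996443, plus strand), which encodes the main PKA catalytic subunit, had 192, 186 and 181 CPM in CONT and 141, 105 and 97.5 CPM in CAC. The CONT libraries were close together, CONT replicate 1 included, and every CAC library was below them. The log2 fold change was -0.70 (SE 0.21), a 1.62-fold lower level in CAC, with an adjusted p of 0.283 in edgeR, 0.0497 in DESeq2 and 0.0416 in voom. Leaving out 1 library gave log2 fold changes of -0.83 to -0.59, with the unadjusted p in edgeR under 0.05 in 4 of 6 fits and the DESeq2 adjusted p under 0.05 in 1 of 6. Prkacb (Cβ) had 56.0, 101 and 138 CPM in CONT and 87.5, 80.9 and 73.9 CPM in CAC, an overlap with a log2 fold change of -0.28 (SE 0.33) that was 0.059 without CONT replicate 3. Summed, the catalytic subunits had 67.9, 68.8 and 71.0 FPKM in CONT and 55.0, 41.9 and 38.8 FPKM in CAC.

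The 4 regulatory subunits had positive log2 fold changes, from 0.32 to 0.49, and none had an unadjusted p under 0.05. Prkar1a had 289, 250 and 281 CPM in CONT and 327, 315 and 400 CPM in CAC, and Prkar2a (RIIα) had 71.5, 70.2 and 67.3 CPM in CONT and 77.0, 88.0 and 118 CPM in CAC. Both were higher in each CAC mouse than in any CONT mouse, with log2 fold changes of 0.35 (SE 0.21) and 0.44 (SE 0.21) and edgeR adjusted p values of 0.504 and 0.417. Without CAC replicate 3, the highest library in both, the log2 fold changes were 0.24 and 0.25. Prkar2b had 339, 410 and 521 CPM in CONT and 981, 364 and 440 CPM in CAC. Its log2 fold change of 0.49 (SE 0.43) came from CAC replicate 1 and was -0.02 without it. Prkar1b (RIβ) was low, at 4.55 to 8.21 CPM.

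Set side by side per length, the summed regulatory subunits were 2.06, 2.11 and 2.48 times the summed catalytic subunits in CONT and 5.37, 3.64 and 4.89 times in CAC. All 3 CAC mice were above all 3 CONT mice in this ratio of FPKM, which does not depend on the library total. It was chosen with the values in view and is a ratio of RNA levels, not of protein.

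The natriuretic peptide receptors differed from each other. Npr3 (ENSMUSG00000022206, chr15:11839896-11907287, minus strand), the clearance receptor, had 332, 642 and 501 CPM in CONT and 270, 36.9 and 37.2 CPM in CAC. CAC replicates 2 and 3 were far below all CONT mice and CAC replicate 1 just below the lowest of them. The log2 fold change was -2.10 (SE 0.85), with an adjusted p of 0.368 in edgeR, 0.0939 in DESeq2 and 0.0448 in voom. It was -3.67 without CAC replicate 1 and -1.66 without CAC replicate 2, and the unadjusted p in edgeR stayed under 0.05 in 1 of 6 fits with 1 library left out.

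Npr1 (ENSMUSG00000027931, chr3:90450591-90465866, minus strand), the receptor that makes cGMP when atrial natriuretic peptide binds, had 139, 77.3 and 90.1 CPM in CONT and 111, 238 and 360 CPM in CAC. CAC replicates 2 and 3 were above all CONT libraries, and CAC replicate 1 lay among them. The log2 fold change was 1.21 (SE 0.46), a 2.32-fold higher level, with an adjusted p of 0.345 in edgeR, 0.13 in DESeq2 and 0.0469 in voom. It was 0.79 without CAC replicate 3, and the unadjusted p in edgeR stayed under 0.05 in 2 of 6 fits with 1 library left out. Npr2, the receptor for C-type natriuretic peptide, had 69.1 to 144 CPM in the 6 libraries and a log2 fold change of -0.17 (SE 0.32), and the antisense gene Gm12473 overlaps it with 1326 reads against 13256.

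The summed receptor level was 77.2, 81.6 and 76.2 FPKM in CONT and 66.2, 60.1 and 76.6 FPKM in CAC, overlapping only through CAC replicate 3. Npr3 took 37.2%, 66.9% and 56.2% of it in CONT and 35.8%, 5.31% and 4.21% in CAC, and Npr1 took 30.5%, 15.8% and 19.8% in CONT and 28.9%, 67.3% and 80.0% in CAC. The FPKM of Npr3 over that of Npr1 was 1.22, 4.23 and 2.83 in CONT and 1.24, 0.079 and 0.053 in CAC, so that CAC replicate 1 matched CONT replicate 1 and the other CAC mice were far below. CAC replicates 2 and 3 are also those in which Lep was at 4.0 and 0.42 CPM, and these values were not tested against the receptors.

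**Figure D3:**
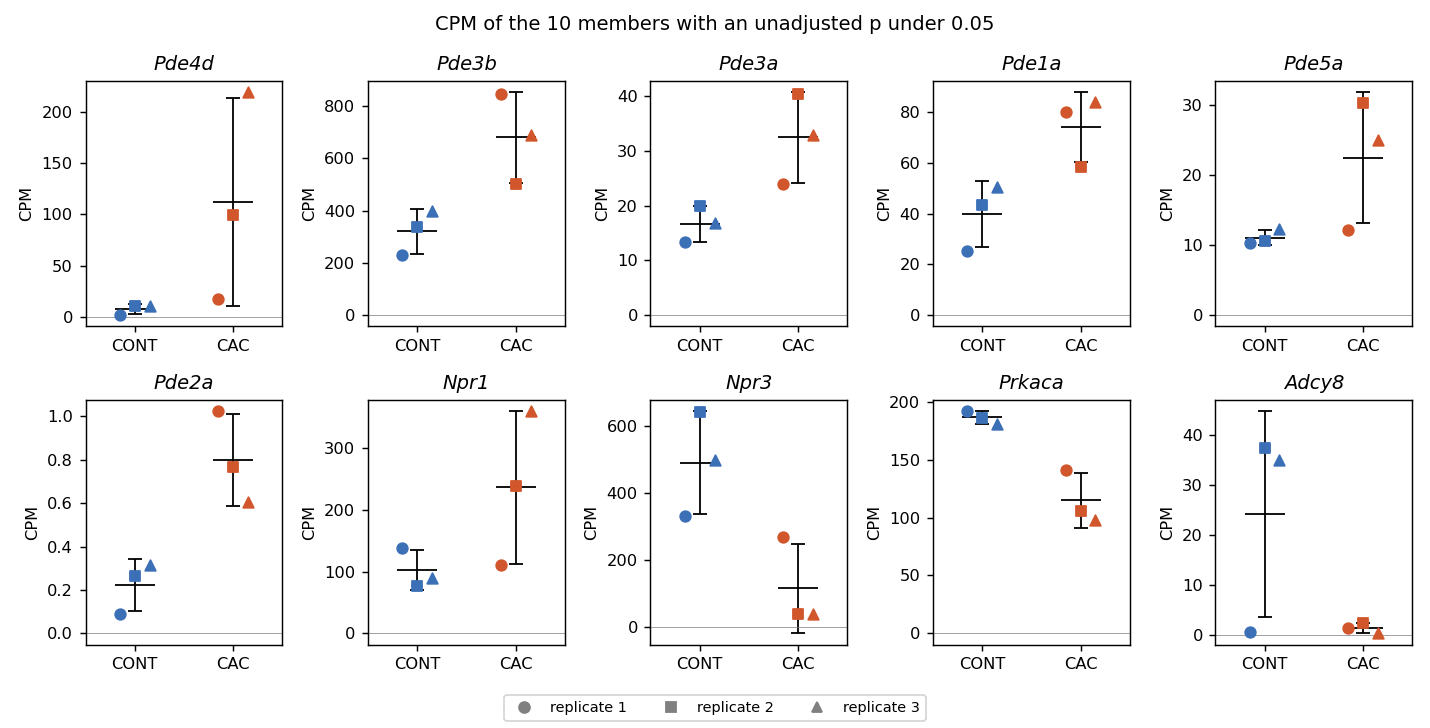
CPM (vertical axes, linear) of the 10 members with an unadjusted p under 0.05 in CONT (blue) and CAC (orange), with 1 symbol per mouse and a black bar for the mean ± SD of 3. In Pde4d, Npr1 and Npr3 the circle of CAC replicate 1 (17.0, 111 and 270 CPM) lies nearest to CONT, and in Adcy8 the circle of CONT replicate 1 (0.54 CPM) lies among the CAC values.

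**Figure D4:**
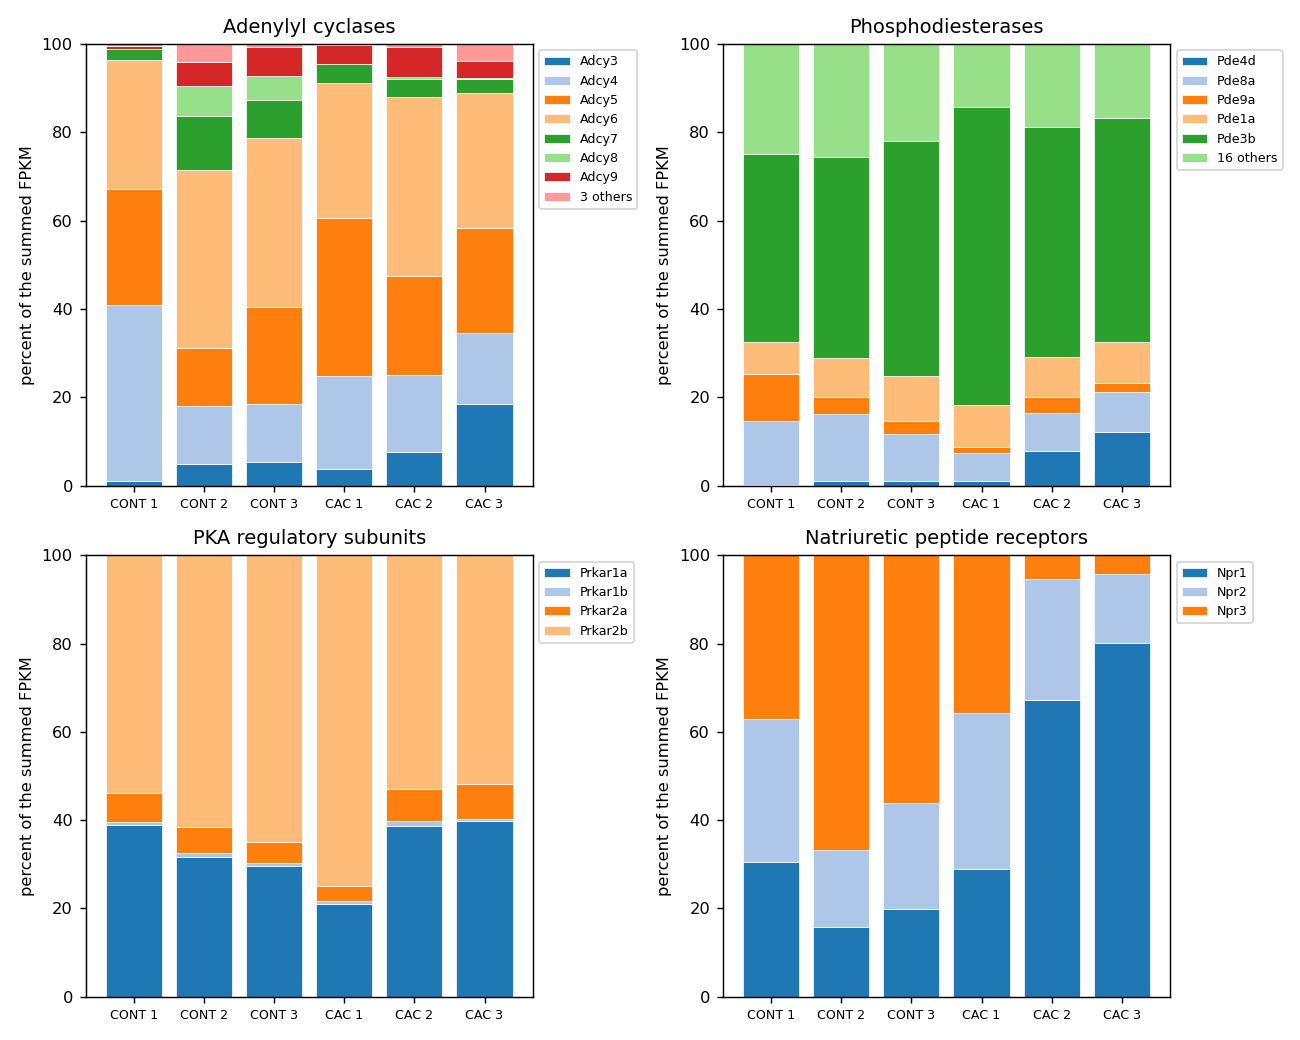
Share of each member in the summed FPKM of its family (vertical axes, percent) in each of the 6 libraries, for adenylyl cyclases, catalytic PDE genes, PKA regulatory subunits and natriuretic peptide receptors; for the larger families, members under 5% in every library are stacked as others. Npr3 takes 37.2%, 66.9% and 56.2% in CONT and 35.8%, 5.31% and 4.21% in CAC. Pde3b is the largest PDE share in each library.

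Other genes of the pathway were taken from 9 lists with 81 genes, of which 65 were tested. Among them, 11 (16.9%, against 13.3% of all genes) had an unadjusted p under 0.05. Of these 11, 10 were higher (6.31% of all genes) and 1 lower in CAC (6.95%). In edgeR, 0 of the pathway genes had an adjusted p under 0.05 (lowest 0.197). In DESeq2 7 had one, as did 5.55% of all genes. Upstream of the cyclases, 0 of 7 G protein alpha subunit genes had an unadjusted p under 0.05 (median log2 fold change -0.31), and neither did any of the 3 tested guanylyl cyclases (0.11), the 3 tested genes of natriuretic peptides and their processing (-0.26) or the 4 genes of PKA inhibitors and the PKA-like kinase (-0.14). Among the effectors and export genes 1 of 7 tested did, Abcc4, a cAMP exporter (log2 fold change 1.30, SE 0.51), and among the anchoring proteins 1 of 14, Akap13 (0.84, SE 0.31).

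Of the 12 tested CREB target genes, 4 had an unadjusted p under 0.05, 3 higher (6.31% of all genes) and 1 lower (6.95%), and the smallest was that of Nr4a3, a nuclear receptor induced within hours of a cAMP signal. Nr4a3 had 1.52, 2.63 and 2.21 CPM in CONT and 14.9, 37.5 and 95.1 CPM in CAC. All CAC libraries were above all CONT libraries, with a log2 fold change of 4.52 (SE 0.73, edgeR adjusted p = 0.197, DESeq2 adjusted p = 6.49e-09). Rgs2, which dampens G protein signals, had a log2 fold change of 2.25 (SE 0.48) and Fosb, an early-response transcription factor, one of -2.17 (SE 0.59). In the list of CREB, its coactivators and the SIK kinases, 3 of 11 did, all higher in CAC (6.31% of all genes): Sik1 (1.63, SE 0.46), Sik3 (0.97, SE 0.30) and Creb1 (0.37, SE 0.15). Of the 4 lipolysis genes, Abhd5, the coactivator of the first triglyceride lipase, was at 109, 103 and 118 CPM in CONT and 243, 225 and 343 CPM in CAC (log2 fold change 1.29, SE 0.23, edgeR adjusted p = 0.215), and Pnpla2, which encodes that lipase, had a log2 fold change of 1.36 (SE 0.32). The lipase and perilipin that PKA phosphorylates directly, Lipe and Plin1, had log2 fold changes of -0.27 (SE 0.37) and -0.25 (SE 0.50).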

How the data were processed

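RNA was extracted from eWAT of 3 CAC and 3 CONT mice, 1 library each. The authors cleaned the reads with in-house scripts, aligned them to GRCm38 (Ensembl annotation) with HISAT2 2.0.5 and counted them with featureCounts 1.5.0-p3, per the submitters' processing notes. The count table the authors deposited holds raw reads per gene. Their FPKM values, also deposited by the authors, scale these reads by gene length and an effective library total. Groups came from the sample labels. The main test was edgeR 4.0.16 in R 4.3.3 (quasi-likelihood test, robust, TMM, filter on low counts by group, condition as the only term, Benjamini-Hochberg adjustment over 17296 genes). DESeq2 1.42.0 and limma 3.58.1 (voom with sample quality weights, and log2(FPKM + 1) or log2(FPKM + 0.1) over genes with at least 0.5 FPKM in at least 3 libraries, a scale that understates changes of low genes) were alternatives, beside other normalizations and filters and each library left out. P-values measure the spread between mice. The tests were checked on simulated data.

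Values per library are given for members with an unadjusted p under 0.05, with a DESeq2 adjusted p under 0.05, with separated groups, or most abundant in their family. Values for Adcy3, Adcy5, Adcy7, Adcy10, Pde1c and Prkacb were added after they were seen. Up to 3 genes of each pathway list with an unadjusted p under 0.05 are named. Of these, Nr4a3 and Abhd5 have values per library, and the others a log2 fold change and SE. The members and lists were chosen with earlier results of these data known.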

Additional observations from a re-analysis of the deposited data

How the results depend on the processing

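Of the members, 0 had an adjusted p under 0.05 in edgeR under every normalization, filter and omission of a library. DESeq2 gave 5 and voom with sample quality weights 4, where 959 and 953 genes in all had one. DESeq2 with 1 library left out was added after the data were seen. It gave 0 members (602 genes in all) without CAC replicate 3 and 8 (2104 genes) without CONT replicate 1. Without CONT replicates 2 and 3 it gave 1 and 3 members (627 and 861 genes). Without CAC replicates 2 and 1 it gave 3 and 6 members (700 and 1505 genes). By unadjusted p, the 10 members became 5 to 10 with 1 library left out, of which 4 to 8 were among the original 10. Over all genes, the same fits ran from 1384 of 19129 (without CAC replicate 2) to 3032 of 19459 (without CONT replicate 1). Without the libraries with germ-cell genes it was 2 members, and 857 of 17135 genes. DESeq2 with 1 library left out gave 8 to 16 members, and 2664 to 4453 genes in all. The 12 members without overlap became 14 to 19 with 1 library left out (19 without CONT replicate 1) and 19 without the libraries with germ-cell genes, smaller groups separating more often by construction. The 11 pathway genes by unadjusted p became 18 in DESeq2, 21 in voom and 9 to 17 with 1 library left out (17 without CONT replicate 1). The count over all genes also moved, from 2294 of 17296 in the main fit to 4884 of 17296 in voom. It was 3230 of 34214 in DESeq2 and 3032 of 19459 in edgeR without CONT replicate 1. Counted by gene, the core TGACG was found for 44.1% of the members and 23% of all genes, members having more windows per gene. Among 538 alternative log2 fold changes of the 37 tested members, 28 reversed, in 12 members, and the cause was not tested. With 1 library left out, these ran from -3.48 to 2.56 for Adcy10, -0.56 to 0.43 for Adcy2, -0.041 to 0.46 for Adcy6, -0.071 to 1.08 for Adcy9, -0.39 to 0.025 for Pde4a, -0.55 to 0.32 for Pde4b, -0.14 to 0.28 for Pde8a, -0.45 to 0.024 for Pde8b, -0.68 to 0.074 for Pde9a, -0.55 to 0.059 for Prkacb, -0.023 to 0.76 for Prkar2b and -0.40 to 0.077 for Npr2. In voom, Adcy10 had -2.67, Pde8a -0.085, Pde9a 0.16 and Prkar2b -0.015. Adcy10 had -0.30 with the replicate block, Adcy2 0.017 and Pde4b 0.068 without a filter, and Pde4b 0.015 in DESeq2 and 0.024 without mitochondrially encoded genes. Replicate numbers share only a number: the deviations of same-numbered libraries correlated at -0.03, 0.06 and -0.15, and with the replicate number as a block 8 members had an unadjusted p under 0.05 and 0 an adjusted one. Depth limits Pde2a and the untested PDE6 genes.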
